A study of Mus musculus with 16 samples.

Results

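The comparison set out here is of culture time without any stimulus: RAW264.7 cells, a mouse macrophage line that serves as an osteoclast precursor, kept with phosphate-buffered saline (PBS) only and collected at 72 h or at 48 h. It rests on 4 of the 16 RNA sequencing libraries of the series, 2 at 72 h and 2 at 48 h, chosen by their labels. All cells first attached for 12 h in MEM with serum, and the PBS cultures received neither RANKL nor vesicles. The other 12 libraries come from cells given vesicles of PC3M cells at 30 µg/mL, RANKL at 10 ng/mL, or vesicles and RANKL together, each collected at 72 h and at 48 h with 2 libraries a group. The study's question was how these vesicles act on osteoclast formation, and the PBS cultures are its untreated cells. RAW264.7 is a transformed line, so its cultures keep dividing and stand for a line rather than for tissue macrophages. Of 20490 genes in the deposited table, 10365 reached 1 FPKM in at least 2 of the 16 libraries and were tested. FPKM, fragments counted per kilobase of gene and scaled to the depth of the library, is the unit taken for the deposited values once their logarithm was undone.

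Macrophages are phagocytes that sense their surroundings through integrins, scavenger receptors, complement proteins and toll-like receptors, and they break down what they take up in lysosomes. Cells meet low oxygen through HIF-1, which raises genes of glycolysis and angiogenesis, meet a lack of amino acids through the transcription factor ATF4, and meet oxidants and electrophiles through NRF2, which raises glutathione and thioredoxin enzymes. Id proteins block the DNA binding of basic helix-loop-helix factors and are textbook targets of BMP signalling.

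The libraries were alike in depth, and 1 of the 4 stood apart. Low values of single-exon genes moved in steps that put the depth at 36.5 M to 39.7 M steps in the PBS libraries, with M for mega, against 36.5 M to 40.0 M over all 16; whether 1 step is a read or a part of a read pair is unknown. Replicate 1 at 72 h differed from replicate 2 at 72 h by a mean of 0.164 on the log2 scale over the tested genes. Replicate 2 at 72 h was nearer to both 48 h libraries, at 0.134 and 0.143, while the 2 libraries of 48 h differed by 0.115. Replicate 1 at 72 h was 0.202 and 0.219 away from them. Several macrophage markers were high in all 4 libraries: Lyz2 lay between 3975 and 6084 FPKM, Cd68 between 1127 and 1318 FPKM, Csf1r between 243 and 324 FPKM and Spi1 between 85.5 and 98.0 FPKM. Others were low, with Mertk at no more than 0.863 FPKM and Mrc1 at no more than 0.530 FPKM. Of 14 epithelial or carcinoma markers 7 had values in the table, and none of these reached the level for testing, and the highest, Muc1, was at 0.0928 FPKM. Of 14 stromal and bone-forming markers 9 had values and none did, with Runx2 highest at 0.667 FPKM. Of 23 markers of other blood cells 11 had values, and of these only S100a8 did, at no more than 1.64 FPKM. Whether the 2 libraries of a group are separate cultures is not stated in the labels. The p-values therefore rest on the spread between libraries, which may be technical.

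Between 72 h and 48 h the PBS cultures changed in few genes, and with all 16 libraries in the fit more of those fell than rose. In bulk RNA, fewer cells with a transcript and less of it per cell cannot be told apart. In limma's test over all 16 libraries, 67 genes passed an adjusted p of 0.05 (0.646% of those tested), 15 of them higher at 72 h (0.145%) and 52 lower (0.502%). At least 2-fold on the log2(FPKM + 1) scale were 4 of the higher genes (0.0386%) and 23 of the lower genes (0.222%). At an unadjusted p of 0.05 there were 1169 genes (11.3%), and there the balance was the other way, with 644 higher and 525 lower at 72 h. The median of all genes tested was 0.01, and the median size of a change was 0.103. In all 67 genes both 72 h libraries lay on the same side of both 48 h libraries. Over all tested genes the libraries did not overlap in 25.2% with 72 h higher and in 22.1% with 72 h lower, so lack of overlap alone says little in 2 against 2 libraries, where an exact permutation test cannot go below 0.333. The number of calls depended on single libraries: without replicate 1 of 72 h it was 3 (0.0289%), without replicate 2 of 72 h 242 (2.33%), of which 170 were higher and 72 lower, without replicate 1 of 48 h 41 (0.396%) and without replicate 2 of 48 h 3 (0.0289%). A fit of the 4 PBS libraries alone called 3 genes (0.0289%). All 67 kept their direction under every one of these, which was fixed in advance because their libraries did not overlap. Dmpk and Mmp8 were called without each of the 4 libraries in turn.

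**Figure D1:**
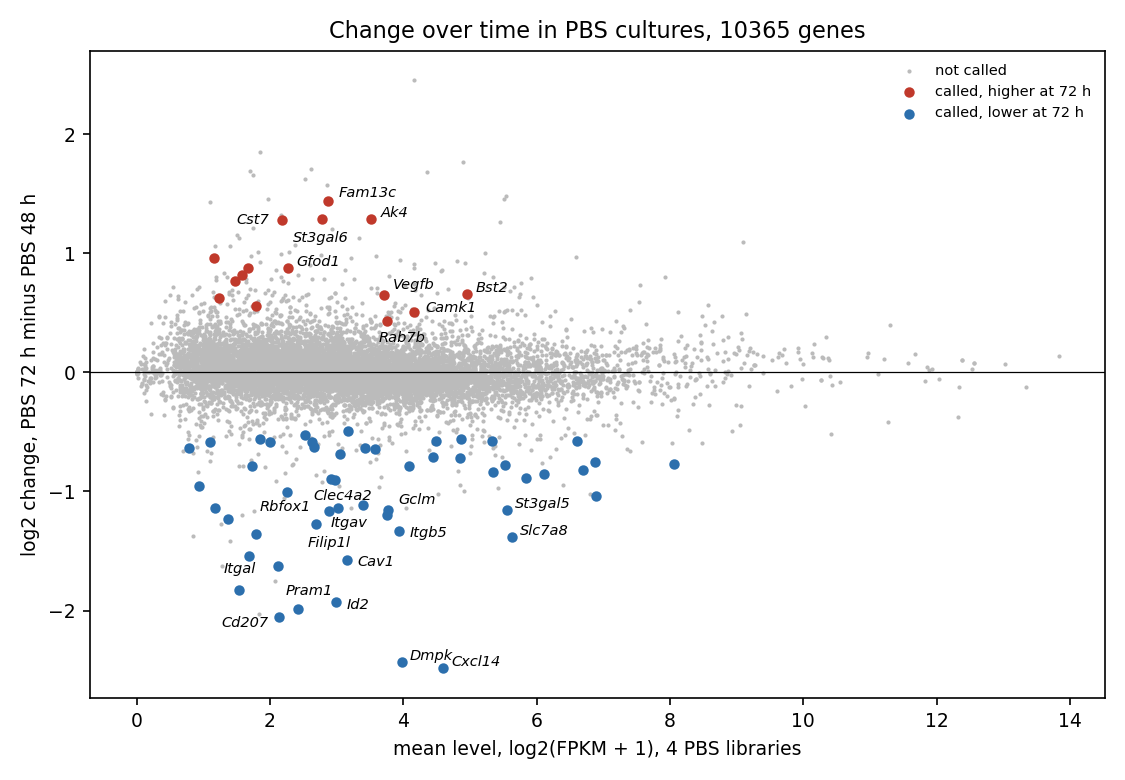
Each point is 1 of the tested genes, with its mean level in the 4 PBS libraries on the x axis, as log2(FPKM + 1), and its log2 change, 72 h minus 48 h, on the y axis. The 15 genes called higher at 72 h are red, the 52 called lower are blue, and the genes of the largest calls at 5 FPKM or more are named; blue points reach -2.49 at Cxcl14 and red ones 1.44 at Fam13c.

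The deepest falls were in Cxcl14 and Dmpk. Cxcl14, a chemokine, was at 5.08 and 7.29 FPKM in the 72 h libraries, against 29.0 and 51.7 FPKM in the 48 h libraries. Its change was -2.49 ± 0.34 (SE) with an adjusted p of 0.0085 in limma. The call of Cxcl14 was lost without replicate 1 of 72 h or without replicate 2 of 48 h. Dmpk, the serine/threonine kinase whose gene carries the repeat of myotonic dystrophy, was at 2.92 and 5.04 FPKM at 72 h, against 21.9 and 29.1 FPKM at 48 h. Both genes were several times lower in each 72 h library than in either 48 h library, and Dmpk changed by -2.43 ± 0.23 with an adjusted p of 5.5e-04 in limma. The smallest adjusted p of all, 7.9e-05 in limma, belonged to Mmp8, a secreted collagenase best known from neutrophils, which is named here after its values were seen. Mmp8 was low in all 4 libraries, with 0.510 and 0.780 FPKM at 72 h, against 3.66 and 3.88 FPKM at 48 h, and its change of -1.54 ± 0.11 understates the ratio of the levels because 1 is added before the logarithm.

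Several further genes of low or middling level fell, and in most of them replicate 2 of 48 h was the highest of the 4 libraries. Cd207, the C-type lectin langerin, had 0.356 and 0.724 FPKM at 72 h, against 2.69 and 9.86 FPKM at 48 h. Pram1, an adaptor protein of myeloid cells, had 0.724 and 1.51 FPKM at 72 h, against 5.33 and 9.79 FPKM at 48 h. Their changes were -2.05 ± 0.39 and -1.99 ± 0.24, and neither gene overlapped between the times. Cav1, the coat protein of caveolae, stood at 2.64 and 4.36 FPKM at 72 h, against 10.5 and 13.99 FPKM at 48 h (-1.57 ± 0.29, limma adjusted p = 0.0329). Filip1l changed by -1.27 ± 0.23 and Rbfox1, a regulator of splicing, by -1.17 ± 0.17. Without replicate 2 of 48 h, or without replicate 1 of 72 h, the calls of these 5 genes were lost.

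The Id genes Id2 and Id1 fell. Id2 was at 2.66 and 1.55 FPKM in the 72 h libraries, against 6.44 and 17.2 FPKM in the 48 h libraries, and Id1 was at 0.329 and 0.0868 FPKM, against 1.89 and 5.31 FPKM. Replicate 2 of 48 h was far above replicate 1 in both, and all 72 h values lay below all 48 h values. Both passed the test, Id2 at -1.93 ± 0.39 (limma adjusted p = 0.0496) and Id1 at -1.83 ± 0.35 (0.0331), and both calls were lost without either 72 h library or without replicate 2 of 48 h. Id3, looked at after these, had 0.274 and 0.366 FPKM at 72 h, against 2.54 and 7.19 FPKM at 48 h, and did not pass (adjusted p = 0.0567 in limma).

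**Figure D2:**
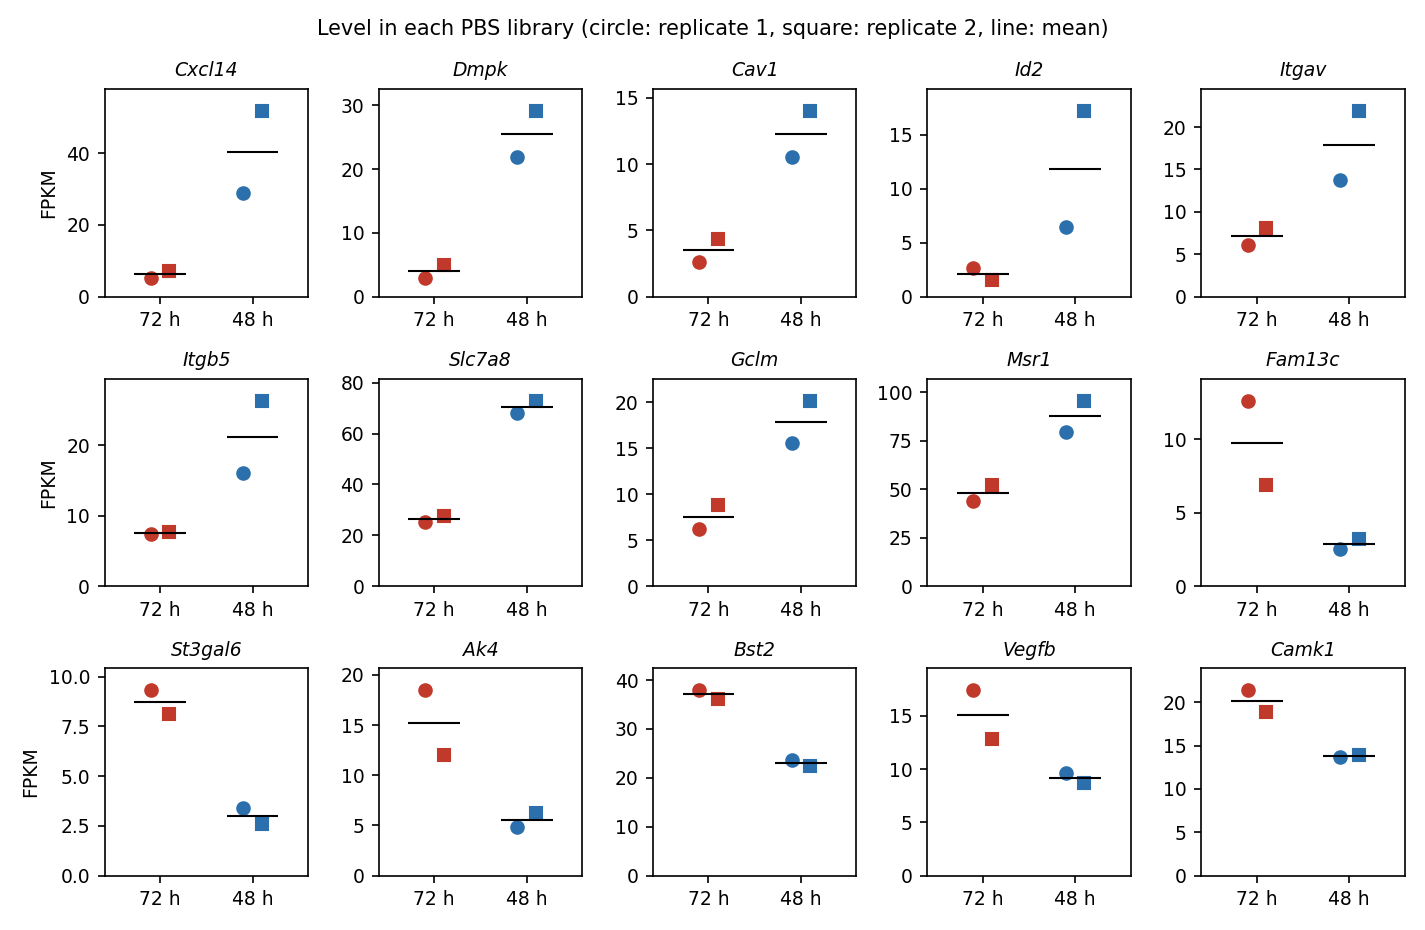
FPKM on the y axis of each panel, starting at 0, for 15 genes in the 4 PBS libraries, with 72 h in red on the left and 48 h in blue on the right; circles are replicate 1, squares replicate 2 and lines the mean of 2. In the first 9 panels both 72 h libraries lie below both 48 h libraries, and in the last 6, from Fam13c on, both lie above.

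Several receptors and adhesion molecules of the macrophage surface fell. Of 13 tested genes of the integrin and adhesion list, 3 were called lower, against 0.502% of all genes tested, and none was called higher. The median change of the list was -0.26 against 0.01 over all genes tested, with 10 members below 0 and 3 above. Itgav and Itgb5 encode the 2 chains of a vitronectin receptor. Itgav was at 6.10 and 8.09 FPKM at 72 h, against 13.8 and 21.9 FPKM at 48 h, and Itgb5 was at 7.42 and 7.71 FPKM, against 16.0 and 26.3 FPKM. The third, Itgal, the alpha chain of LFA-1, had 1.07 and 1.03 FPKM at 72 h, against 3.62 and 7.70 FPKM at 48 h. The 72 h libraries were close to each other in Itgal and Itgb5, and the spread lay in the 48 h libraries. Changes were -1.20 ± 0.22, -1.33 ± 0.25 and -1.63 ± 0.28. Without replicate 2 of 48 h, or replicate 1 of 72 h, none of the list was called in limma, while 5 genes of it had an unadjusted p under 0.05 in each case.

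Some complement genes fell: 3 of 12 tested genes of complement and Fc receptors were called lower, against 0.502% of all genes tested, and the median of the list was -0.59. In limma there were 0 calls without replicate 1 of 72 h, where 5 genes of the list had an unadjusted p under 0.05, then 1 without replicate 2 of 48 h, 2 without replicate 2 of 72 h and 2 without replicate 1 of 48 h. C1qa, a chain of C1q that starts the classical pathway, had 0.471 and 0.339 FPKM at 72 h, against 2.57 and 1.66 FPKM at 48 h. C1qc, another chain, had 0.395 and 0.313 FPKM, against 1.13 and 1.06 FPKM, and the remaining chain, C1qb, had 1.10 and 1.16 FPKM, against 3.09 and 2.29 FPKM, with an adjusted p of 0.053 in limma. Each chain of C1q was thus low at both times, and lower in both 72 h libraries. C3ar1, a receptor for a fragment of C3, stood at 19.5 and 17.8 FPKM at 72 h, against 35.3 and 38.5 FPKM at 48 h, and was not called (adjusted p = 0.155 in limma).

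Among scavenger, clearance and toll-like receptors 1 of 18 tested genes was called lower, against 0.502% of all genes tested, and the median of the list was -0.31. The called gene was Stab1, at 1.56 and 1.31 FPKM at 72 h, against 3.23 and 3.13 FPKM at 48 h. Of 21 tested genes of macrophage identity, the scavenger receptor Msr1 alone was called, lower at 72 h, against 0.502% of all genes tested. Msr1 was at 43.9 and 52.1 FPKM at 72 h, against 79.4 and 95.6 FPKM at 48 h (-0.85 ± 0.13, limma adjusted p = 0.0111). The median of the whole list was -0.08, with 14 of 21 members below 0 and 9 lower at 72 h without overlap, against 22.1% of all genes tested. Csf1r, the receptor of the growth factor CSF-1, was at 251 and 243 FPKM at 72 h, against 293 and 324 FPKM at 48 h, and Adgre1, the F4/80 antigen, at 22.9 and 20.8 FPKM, against 28.9 and 34.05 FPKM. Neither was called in limma (adjusted p = 0.260 and 0.264). Clec4a2, an inhibitory lectin receptor outside these lists, also fell, by 1.14 on the log2 scale.

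The NRF2 antioxidant list held more called genes than any of the other lists examined with all libraries in the fit. Without replicate 1 of 48 h the adhesion list had 4 calls and the NRF2 list 2, and without replicate 2 of 72 h the hypoxia, ATF4 and glycolysis lists had 15, 11 and 9 calls and the NRF2 list 6. Of 21 tested members 6 were called lower, against 0.502% of all genes tested, and none higher. Below 0 lay 20 of them, and the median change was -0.43. In 17 of the 21 both 72 h libraries lay below both 48 h libraries, against 22.1% of all genes tested. With all libraries, 525 of the 10365 genes tested were lower at an unadjusted p of 0.05 in limma. Gclm, the modifier subunit of glutamate-cysteine ligase, was at 6.19 and 8.79 FPKM at 72 h, against 15.6 and 20.1 FPKM at 48 h (-1.16 ± 0.20, limma adjusted p = 0.0216). Gclc, the catalytic subunit of that first enzyme of glutathione synthesis, was at 35.7 and 42.0 FPKM, against 62.2 and 84.4 FPKM. Both subunits were thus lower in both 72 h libraries, and replicate 1 was the lower of the 72 h pair. Txnrd1, thioredoxin reductase, was at 76.1 and 98.0 FPKM at 72 h, against 143 and 149 FPKM at 48 h. Srxn1, which restores oxidised peroxiredoxins, was at 17.5 and 24.4 FPKM, against 31.5 and 37.9 FPKM, and the quinone reductase Nqo1 at 0.245 and 0.357 FPKM, against 1.65 and 1.39 FPKM. Slc48a1, a haem transporter, completed the 6 at -0.78 ± 0.12. Genes of the list that did not pass included Hmox1, the haem-degrading enzyme, with 60.3 and 42.2 FPKM at 72 h, against 59.9 and 54.1 FPKM at 48 h, and the ferritin heavy chain Fth1, which changed by 0.02 ± 0.17. The next genes lie outside the list and were picked after their values were seen, so they say nothing further about it. Catalase (Cat) fell to 69.4 and 79.3 FPKM at 72 h, against 130.3 and 133 FPKM at 48 h. The aldo-keto reductase Akr1b8 fell by 1.04 on the log2 scale. The 6 calls were 6 without replicate 2 of 72 h, 2 without replicate 1 of 48 h and 0 without replicate 1 of 72 h or replicate 2 of 48 h; at an unadjusted p of 0.05 limma had 10 to 13 genes of the list in these fits, and 14 with all libraries.

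**Figure D3:**
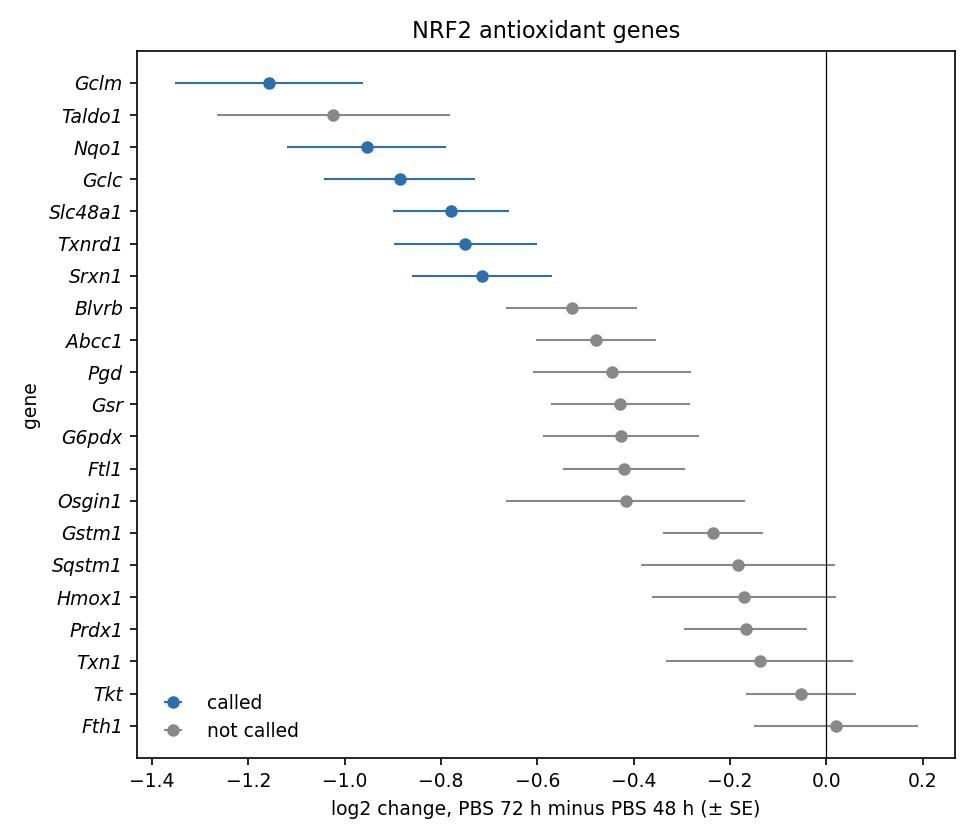
The log2 change, 72 h minus 48 h, of the 21 tested genes of the NRF2 list on the x axis, 1 gene a line, with bars of ± 1 standard error from limma; blue genes were called and grey ones were not. The called genes run from -1.16 at Gclm to -0.71 at Srxn1, and Fth1 alone lies above 0.

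NRF2 binds antioxidant response elements, and promoters of 3 called genes are shown because the core of that element occurs in them. The core was searched as TGACNNNGC on both strands in the RefSeq promoters of GRCm38.p6, 250 bases before to 50 after each start. Of 16 genes of the list with a promoter in the table, 6 held it, against 17.1% of the tested genes with a promoter and 12.4% of all promoters. The Gclm promoter lies at chr3:122245307-122245606 on the plus strand, with the match beginning at position -134 from the start. The Srxn1 promoter lies at chr2:152105274-152105573 on the plus strand with the match at 28, and that of Txnrd1 at chr10:82858956-82859255 on the plus strand with the match at -92, 1 of 3 promoters of that gene in the table. The promoter of Nqo1, also called, held no match, and the called genes Gclc and Slc48a1 had no promoter in the table. Capitals mark the match, which in all 3 reads on the opposite strand. A match of letters is a description and shows no binding.
Gclm: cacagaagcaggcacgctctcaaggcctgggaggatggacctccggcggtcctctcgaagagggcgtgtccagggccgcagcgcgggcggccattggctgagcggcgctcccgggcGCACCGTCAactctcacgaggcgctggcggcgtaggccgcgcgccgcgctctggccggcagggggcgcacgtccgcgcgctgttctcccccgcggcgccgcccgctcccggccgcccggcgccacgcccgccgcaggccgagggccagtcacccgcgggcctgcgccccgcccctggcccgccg
Srxn1: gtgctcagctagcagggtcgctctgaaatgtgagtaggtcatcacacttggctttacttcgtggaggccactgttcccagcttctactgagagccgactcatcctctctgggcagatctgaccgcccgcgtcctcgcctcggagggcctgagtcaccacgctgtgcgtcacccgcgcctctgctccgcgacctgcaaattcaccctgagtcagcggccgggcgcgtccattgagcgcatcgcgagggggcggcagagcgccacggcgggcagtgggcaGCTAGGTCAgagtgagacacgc
Txnrd1: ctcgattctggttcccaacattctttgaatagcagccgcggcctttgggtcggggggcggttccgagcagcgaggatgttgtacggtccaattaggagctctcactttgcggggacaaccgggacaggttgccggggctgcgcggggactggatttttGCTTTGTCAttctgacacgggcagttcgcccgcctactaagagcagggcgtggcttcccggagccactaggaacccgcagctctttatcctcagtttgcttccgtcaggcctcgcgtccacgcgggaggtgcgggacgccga

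A few lysosomal, lipid and transport genes fell, where 0.502% of all genes tested were called lower. Lipa, the lysosomal acid lipase, was at 190.4 and 200 FPKM at 72 h, against 294 and 380 FPKM at 48 h, and was the 1 gene called of 18 in the lipid efflux list, whose median was -0.03. Man2b1, lysosomal alpha-mannosidase, was at 22.3 and 22.7 FPKM, against 31.4 and 36.2 FPKM, and was the 1 called of 33 lysosomal genes (median -0.05). Outside that list Acp2, a lysosomal acid phosphatase, and Creg1, a lysosomal glycoprotein, fell by 0.64 and 0.57 on the log2 scale. Slc7a8, the light chain of a neutral amino acid exchanger, was at 25.4 and 27.6 FPKM at 72 h, against 68.2 and 72.9 FPKM at 48 h, with replicates close in both groups. It was called at -1.38 ± 0.28 (limma adjusted p = 0.0488), and Slc43a2, another carrier of neutral amino acids, at -0.57 ± 0.11; the other 13 of 15 tested transporter genes were not. The calls of Slc7a8, Man2b1, Stab1 and C1qc were each lost when any 1 of the 4 libraries was left out, and Slc7a8 was among the 3 calls of the fit of PBS libraries alone.

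Of 20 tested cytokines, chemokines and mediators, 2 were called lower, against 0.502% of all genes tested, and none higher, with a median of 0.15. Il10, an anti-inflammatory cytokine, had 0.499 and 0.577 FPKM at 72 h, against 2.16 and 3.14 FPKM at 48 h (-1.23 ± 0.16). Ptgs2, the inducible cyclooxygenase, had 4.43 and 4.53 FPKM, against 8.74 and 9.81 FPKM (-0.90 ± 0.15). In both genes the 72 h libraries were close to each other and below both 48 h libraries. The calls of both were lost without replicate 1 of 72 h or without replicate 2 of 48 h. The 2 sialyltransferases among the named genes went opposite ways. St3gal5, the synthase of ganglioside GM3, was at 24.5 and 31.7 FPKM at 72 h, against 54.2 and 73.6 FPKM at 48 h (-1.15 ± 0.20), while St3gal6 was at 9.32 and 8.14 FPKM, against 3.42 and 2.57 FPKM (1.29 ± 0.25).

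Called rises were fewer than called falls with all libraries, at 0.145% against 0.502% of all genes tested, and the largest was smaller. Without replicate 2 of 72 h there were more rises than falls, as given above, and over all genes tested, called or not, changes reached 2.45 upwards and -2.49 downwards. Fam13c led the called rises with 12.6 and 6.91 FPKM at 72 h, against 2.51 and 3.20 FPKM at 48 h (1.44 ± 0.23, limma adjusted p = 0.0188). Cst7, the lysosomal protease inhibitor cystatin F, had 6.57 and 4.29 FPKM, against 2.17 and 1.15 FPKM. In both, replicate 1 was the higher of the 72 h pair. Gfod1 rose by 0.88 ± 0.13. Bst2, the interferon-stimulated membrane protein tetherin, was at 37.9 and 36.2 FPKM at 72 h, against 23.7 and 22.4 FPKM at 48 h, and was the 1 gene called of 32 interferon-stimulated genes, whose median was 0.04. Vegfb, a growth factor of the VEGF family, was at 17.4 and 12.8 FPKM, against 9.66 and 8.73 FPKM, and was the 1 called of 17 growth factor and CSF genes. Camk1, a calcium/calmodulin-dependent kinase, and Rab7b, a small GTPase of late endosomes, rose by 0.51 ± 0.10 and 0.43 ± 0.08. Every one of the 15 rises lost its call without replicate 1 of 72 h or without replicate 2 of 48 h.

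Of 18 tested genes of the hypoxia response 1 was called higher, Ak4, against 0.145% of all genes tested. The median change of the list was 0.85 against 0.01 over all genes tested. Most of that median came from 1 library. Ak4, a mitochondrial adenylate kinase, was at 18.5 and 12.0 FPKM at 72 h, against 4.88 and 6.23 FPKM at 48 h (1.29 ± 0.24, limma adjusted p = 0.0331). In 15 of the 18 both 72 h libraries lay above both 48 h libraries, against 25.2% of all genes tested. With all libraries, 644 of the 10365 genes tested were higher at an unadjusted p of 0.05 in limma. The median of the list was 1.32 in replicate 1 and 0.35 in replicate 2, each against the mean of the 48 h libraries. Adm, the vasodilator adrenomedullin, had a wide gap between the 72 h libraries, with 8.91 and 0.995 FPKM at 72 h, against 0.264 and 0.200 FPKM at 48 h. Ndrg1, a stress-induced gene, was at 83.2 and 13.7 FPKM, against 9.69 and 8.96 FPKM. Bnip3, which directs mitochondria to autophagy, was at 103.9 and 35.4 FPKM, against 19.6 and 22.8 FPKM. In these 3 genes replicate 1 of 72 h was far above the other 3 libraries, and replicate 2 was above 48 h by less. Vegfa, the angiogenic growth factor, had 12.0 and 3.85 FPKM at 72 h, against 1.43 and 1.71 FPKM at 48 h, and missed the threshold (adjusted p = 0.0586 in limma). Hif1a itself, with 25.0 and 26.8 FPKM at 72 h, against 25.5 and 26.9 FPKM at 48 h, overlapped between the times. Without replicate 2 of 72 h 15 members were called, and without any of the other 3 libraries none was in limma; at an unadjusted p of 0.05 there were 6 without replicate 1 of 72 h and 16 with all libraries.

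The promoters of Ak4 and Bnip3 are shown because both hold the core of the hypoxia response element. ACGTG was searched on both strands in the same RefSeq promoters of GRCm38.p6. Of 15 genes of the list with a promoter, 12 held it, against 30.7% of the tested genes and 21.8% of all genes with a promoter. In both promoters it occurs on both strands at once, in 2 overlapping matches that capitals mark. The Ak4 promoter lies at chr4:101419453-101419752 on the plus strand with matches from -214, 1 of 4 promoters of that gene in the table and the only one of them with a match, and that of Bnip3 at chr7:138909457-138909756 on the minus strand with matches from -108. The promoter of Adm in the table held no match.
Ak4: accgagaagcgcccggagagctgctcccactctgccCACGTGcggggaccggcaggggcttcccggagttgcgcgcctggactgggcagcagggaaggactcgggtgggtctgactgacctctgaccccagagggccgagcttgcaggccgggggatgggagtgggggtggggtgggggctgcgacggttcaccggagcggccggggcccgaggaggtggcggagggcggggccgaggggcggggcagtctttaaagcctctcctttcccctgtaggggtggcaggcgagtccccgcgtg
Bnip3: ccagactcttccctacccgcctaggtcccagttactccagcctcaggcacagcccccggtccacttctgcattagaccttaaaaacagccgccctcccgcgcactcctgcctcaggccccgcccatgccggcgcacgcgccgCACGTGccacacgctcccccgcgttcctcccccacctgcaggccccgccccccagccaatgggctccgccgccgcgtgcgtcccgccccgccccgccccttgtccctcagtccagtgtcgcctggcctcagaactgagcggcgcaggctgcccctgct

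Glycolysis and the ATF4 response had the same division between the 72 h libraries. None of 23 tested glycolysis genes was called in limma, with 14 of them higher at an unadjusted p of 0.05. Over all 10365 genes tested, 644 were higher at that threshold. The median of the glycolysis genes was 0.35, made of 0.52 in replicate 1 and 0.18 in replicate 2. Eno2, a form of enolase, was at 8.35 and 0.642 FPKM at 72 h, against 0.261 and 0.218 FPKM at 48 h, and the glucose transporter Slc2a1 at 70.3 and 33.0 FPKM, against 26.6 and 28.01 FPKM. None of 28 tested genes of the ATF4 amino acid response was called either, with 16 higher at an unadjusted p of 0.05, and the median of 0.50 was made of 0.76 in replicate 1 and 0.18 in replicate 2. Trib3, a pseudokinase that ATF4 induces, had 7.79 and 0.782 FPKM at 72 h, against 0.151 and 0.305 FPKM at 48 h. Atf3, a transcription factor of the stress response, had 40.2 and 8.44 FPKM at 72 h, against 9.18 and 9.87 FPKM at 48 h, so replicate 2 of 72 h was the lowest of the 4. Without replicate 2 of 72 h limma called 9 glycolysis genes and 11 ATF4 genes.

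**Figure D4:**
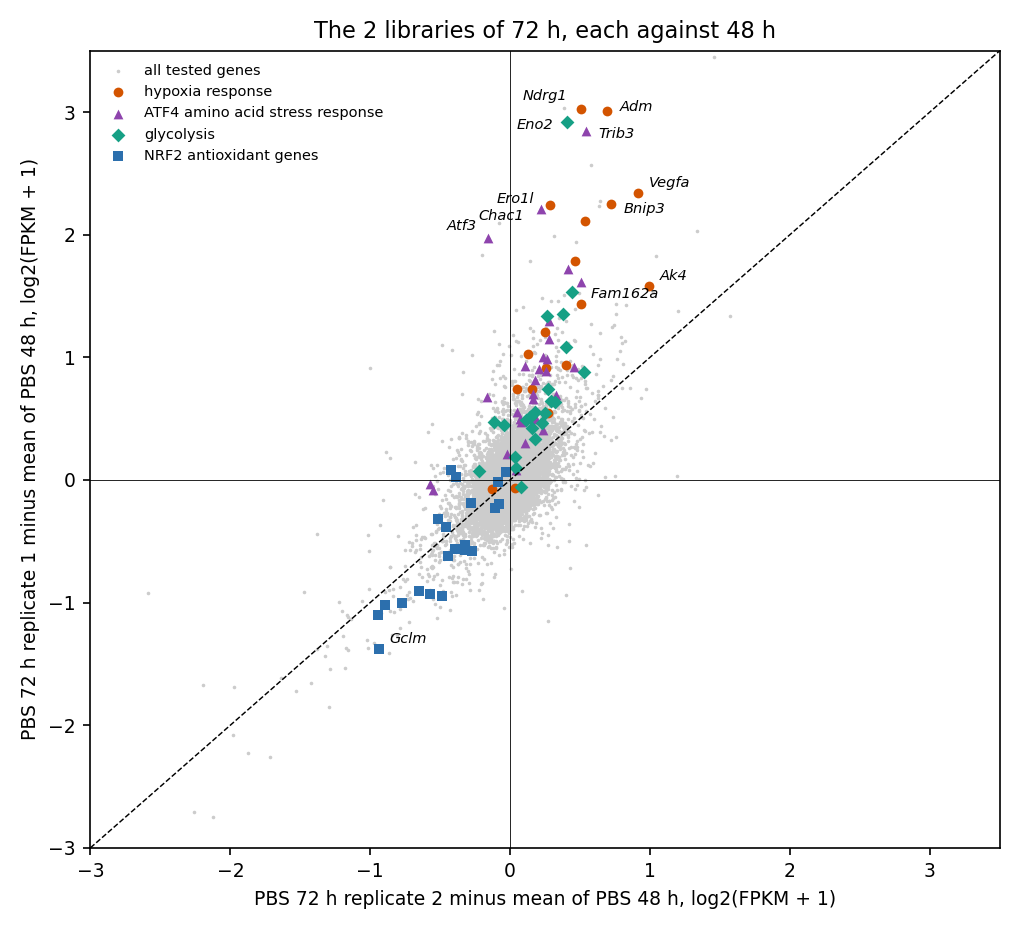
Each point is a tested gene, with replicate 2 of 72 h minus the mean of the 48 h libraries on the x axis and replicate 1 of 72 h minus that mean on the y axis, both on the log2(FPKM + 1) scale; 4 lists are coloured and the dashed line marks equal change. The medians of the hypoxia, ATF4 and glycolysis genes lie above the dashed line, at 1.32, 0.76 and 0.52 in replicate 1 against 0.35, 0.18 and 0.18 in replicate 2, while those of the NRF2 genes lie near it at -0.57 and -0.42.

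The NRF2 genes had a median of -0.57 in replicate 1 and -0.42 in replicate 2, and the complement and Fc receptor genes had -0.56 and -0.57. Both lists were thus below the 48 h mean in each of the 72 h libraries. That mean is shared, so the values of the 72 h libraries are not independent of each other.

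Growth and differentiation genes showed no called change. None of 25 DNA replication genes and none of 24 mitosis genes was called in limma, 0 of them at an unadjusted p of 0.05, with medians of -0.11 and -0.03. Of the replication genes 23 lay below 0, and 10 were lower at 72 h without overlap, against 22.1% of all genes tested. Their median was -0.22 in replicate 1 of 72 h and -0.03 in replicate 2. Of the mitosis genes 14 lay below 0 and 10 above. Mki67, a marker of dividing cells, was at 143.5 and 162 FPKM at 72 h, against 153 and 165 FPKM at 48 h, and cyclin D1 (Ccnd1) at 139 and 173 FPKM, against 151 and 165 FPKM. Both overlapped between the times. Of 23 osteoclast genes none was called in limma, with 3 at an unadjusted p of 0.05, against 11.3% of all genes tested. Their median was -0.01. Acp5, tartrate-resistant acid phosphatase, had 0.642 and 0.437 FPKM at 72 h, against 0.564 and 0.872 FPKM at 48 h. Ctsk, cathepsin K, had 3.71 and 2.16 FPKM, against 2.23 and 2.11 FPKM, and Nfatc1, the transcription factor that directs osteoclast differentiation, had 10.8 and 11.7 FPKM, against 11.0 and 12.9 FPKM. These 3 genes also overlapped. Mmp9, a gelatinase of osteoclasts, was at no more than 0.332 FPKM in any of the 4 libraries. Myc, a driver of growth, had 3.01 and 1.80 FPKM at 72 h, against 2.47 and 3.67 FPKM at 48 h, and Irf8, a factor of the macrophage lineage, had 11.0 and 7.502 FPKM, against 6.41 and 6.44 FPKM. The growth factor Igf1 had 22.2 and 25.3 FPKM, against 37.8 and 39.3 FPKM, lower in both 72 h libraries and not called (limma adjusted p = 0.382). Among 31 nuclear genes of the respiratory chain 30 lay above 0, with a median of 0.13, and none was called in limma, with 1 at an unadjusted p of 0.05.

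Set beside the other cultures, the change over time without stimulus was the smallest. The median size of a change was 0.103 in PBS cultures, against 0.167 with RANKL, 0.233 with vesicles and 0.252 with both. The number of genes called over time was 67 in PBS cultures, against 625 with RANKL (6.03%), 3347 with vesicles (32.3%) and 4027 with both (38.9%). Median changes of the replication and mitosis lists were -0.11 and -0.03 in PBS cultures, against -0.43 and -0.39 with RANKL, -0.45 and -0.21 with vesicles and -0.69 and -0.61 with both. The hypoxia median of 0.85 in PBS cultures stood between 1.25 with vesicles and 0.72 with both, and RANKL cultures had 0.38. In PBS cultures that median was 1.32 in replicate 1 of 72 h and 0.35 in replicate 2, so this order depended on the library. For complement and Fc receptors the median was -0.59 in PBS cultures and between 0.09 and 0.16 in the others. Over the 10365 genes the change in PBS cultures correlated with that in vesicle cultures at r = 0.54, with that in RANKL cultures at r = 0.40 and with that of both together at r = 0.32, a description across genes, which are not replicates. Without replicate 1 of 72 h these values were 0.25, 0.19 and 0.085.

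**Figure D5:**
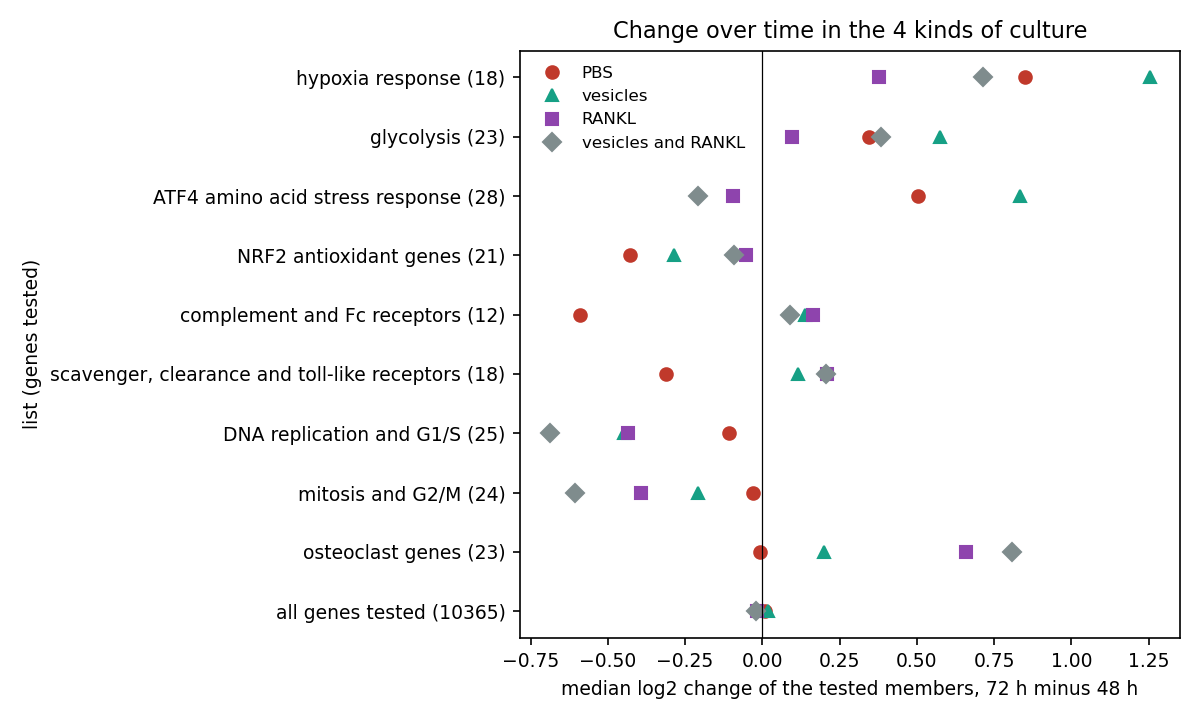
The median log2 change, 72 h minus 48 h, of the tested members of 9 lists and of all genes tested on the x axis, 1 list a line with its number of tested genes in brackets; red circles are PBS cultures, green triangles vesicles, purple squares RANKL and grey diamonds both. In PBS cultures complement, scavenger and NRF2 genes have medians of -0.59, -0.31 and -0.43, and the cell cycle and osteoclast lists lie nearer to 0 than in the other cultures.

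Tests of the difference itself called few genes against single treatments. The change over time with RANKL minus that in PBS cultures passed in 3 genes (0.0289%), and that with vesicles minus that in PBS cultures in 2 (0.0193%). Mmp8 was in both: it fell by 1.54 in PBS cultures, against changes of 0.18 with RANKL and -0.25 with vesicles, and the differences were 1.72 ± 0.16 and 1.29 ± 0.16 (limma adjusted p = 0.00126 and 0.0212). Slc16a12, a creatine transporter, was at 4.13 and 3.79 FPKM at 72 h, against 6.28 and 7.01 FPKM at 48 h in PBS cultures. In RANKL cultures its libraries ran from 9.21 to 10.6 FPKM at 72 h, against 7.32 to 7.70 FPKM at 48 h, so it fell in one and was higher at 72 h in the other, by a difference of 0.98 ± 0.12 (limma adjusted p = 0.0173). Sesn1, a stress-induced inhibitor of mTORC1, differed in the same direction. Leaving out single PBS libraries gave 1 to 4 genes for RANKL and 0 to 4 for vesicles, the 0 standing beside 1218 genes or more at an unadjusted p of 0.05 in limma. Against vesicles and RANKL together the difference passed in 997 genes (9.62%), 470 higher (4.53%) and 527 lower (5.08%). Of 24 mitosis genes 13 were among them, and of 12 complement and Fc receptor genes 6. That count was 437 without replicate 1 of 72 h, 71 without replicate 2 of 72 h, 148 without replicate 1 of 48 h and 5 without replicate 2 of 48 h.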

How the data were processed

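RNA of RAW264.7 cells was sequenced after TruSeq mRNA library preparation, per the labels' protocols, in 8 groups of 2 libraries. The submitters' processing notes name the tools HISAT2, Partek and FastQC and the human builds GRCh38 and hg38, and the sources used here give neither the mouse build nor the annotation. The deposited values were taken as log2(FPKM + 1); the log2 unit and the added 1 were inferred from the values. Of 20490 gene names, 19040 occur in GENCODE M21, which gave lengths of single-exon genes for the depth; 84.4% to 87.0% of their low values in PBS libraries lay within 0.05 of a whole step.

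Limma 3.58.1 in R 4.3.3, with a variance trend, was fitted to all 16 libraries as 8 group means. Genes at 1 FPKM or more in 2 libraries were tested, with Benjamini-Hochberg adjustment over 10365 genes and a threshold of 0.05. Differences of the time change are interaction contrasts of that fit. Errors of log2 changes are limma's standard errors. 1 column, of vesicles plus RANKL at 48 h, was assigned by group only. The fit was tested on simulated data. Tables and figures used Python 3.11.15.

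Members, the 37 gene lists (797 genes, 761 in the table, 664 tested, 23 called) and tests were chosen with earlier results of these data known. Named were up to 15 genes a direction with the largest called change at 5 FPKM or more and no overlap, up to 5 called members of each list or its 2 of highest level, 12 chosen genes, and 5 a direction for each difference; predicted genes were counted only, and 1 gene that the rule names is not reported here. Mmp8, Id1, Id3, Srxn1, Cat, Akr1b8 and the uncalled list members given with values were named after their values were seen. Alternatives changed the libraries, added constant, filter, scaling, moderation and replicate block, and left out each PBS library.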

Additional observations from a re-analysis of the deposited data

Results flagged for a closer look

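The change over time in PBS cultures was set against that in each treated culture by a test of the difference itself in limma, and the results that passed are given here. With RANKL, 3 genes differed: Mmp8, Sesn1 by 1.27 and Slc16a12 by 0.98 on the log2 scale, treated minus PBS. With vesicles 2 genes differed, Mmp8 and 1 predicted gene. With vesicles and RANKL together 997 genes differed. Among the genes of smallest p at 5 FPKM or more, the difference was positive in Sesn1 (1.45), Slc16a12 (1.26), Plekhn1 (1.25) and Man2b1 (1.03). It was negative in Slc7a5 (-1.38), the light chain of an amino acid exchanger, in Lsm5 (-1.26), an RNA-binding protein, in Prr11 (-0.97), in Cep55 (-0.90), which acts at the end of cell division, and in Dbf4 (-0.81), which activates a kinase of replication origins.

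These 4 genes of positive difference were lower at 72 h in PBS cultures and higher at 72 h with vesicles and RANKL. Slc7a5 was at 35.2 and 29.8 FPKM in PBS libraries of 72 h, against 32.7 and 27.97 FPKM at 48 h, and its 2 libraries with vesicles and RANKL were between 11.1 and 13.1 FPKM at 72 h, against 29.0 to 32.5 FPKM at 48 h.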

How the results depend on the processing

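The 67 genes called in PBS cultures kept their direction in every alternative that tested them. Their libraries did not overlap between the times, so only the changes of scaling could have turned it. The count of called genes did not keep its size. It was 3 with only the 4 PBS libraries, 2 with the 8 libraries without vesicles, 37 with no filter on low values and 3 to 242 without single replicates, and lay between 49 and 75 under the other scalings, constants, filter and moderations. The 23 called genes of the lists became 1, 0 and 5 under the first 3 of these alternatives and 0 to 71 without single replicates; beside that 0 without vesicles, 156 listed genes had an unadjusted p under 0.05 in limma. The difference of RANKL from PBS, 3 genes, became 0 without vesicle libraries (1172 at an unadjusted p of 0.05), 1 with 0.1 added, 15 with no filter and 1 to 4 without single replicates. That of vesicles, 2 genes, became 0 with 0.1 or 0.5 added, with a filter of 5 FPKM or after rescaling without mitochondrial genes (1551 or more at an unadjusted p of 0.05), 14 with no filter and 0 to 4 without single replicates. That of both, 997 genes, became 341 with no filter and 5 to 437 without single replicates. The causes were not tested, except that fewer libraries or more genes enter some of these fits by construction.

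With the replicate number as a block, which leaves out the 1 unnumbered library, 131 genes were called in PBS cultures, and the differences called 5, 1 and 5 genes for RANKL, vesicles and both. The numbers are only shared: deviations of same-numbered PBS libraries correlated at 0.12 over genes, with a single pair of groups.

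Among named genes only uncalled ones changed sign. After quantile normalization the log2 change of Ccng1 was 0.024, that of Pcna 0.018 and that of Tpx2 3.4e-04. Without single replicates it ran from -0.18 to 0.13 in Ccnd1, -0.10 to 0.095 in Ccng1, -0.094 to 0.025 in Ccnl2, -0.28 to 0.038 in Cd9, -0.046 to 0.075 in Cep55, -0.0015 to 0.57 in Ctsk, -0.0040 to 0.056 in Dlgap5, -0.077 to 0.039 in Hsp90b1 and -0.14 to 0.31 in Hspa8. It ran from -7.1e-04 to 0.34 in Mcl1, -0.15 to 0.026 in Mki67, -0.17 to 0.079 in Mmp9, -0.19 to 0.031 in Nfatc1, -0.082 to 0.052 in Pcna, -0.020 to 0.21 in Slc7a5, -0.15 to 0.20 in Tcirg1 and -0.12 to 0.053 in Tpx2.

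In a transcript of 1 kb 1 step was worth 0.0252 to 0.0274 FPKM in the PBS libraries, so genes under about 0.1 FPKM rest on few reads. With 2 libraries a group, the spread is borrowed from the other cultures, and a library left alone in its group was assumed to vary like them.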

Other observations

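Some of the widest differences between 72 h and 48 h belonged to genes that did not pass the test, named here after their values were seen. Scd1, the desaturase that makes oleate, was at 59.1 and 69.9 FPKM at 72 h, against 34.9 and 14.8 FPKM at 48 h (limma adjusted p = 0.212). Of 13 tested genes of fatty acid synthesis none was called in limma, with 6 at an unadjusted p of 0.05, against 11.3% of all genes tested. Their median change was 0.23. Fxyd2, a small regulator of the sodium pump, was at 924 and 576 FPKM at 72 h, against 368 and 315 FPKM at 48 h, and Ighm, the immunoglobulin mu chain, at 37.9 and 23.04 FPKM, against 9.81 and 7.37 FPKM. In all 3 genes both 72 h libraries lay above both 48 h libraries. Taldo1, an enzyme of the pentose phosphate pathway, was at 68.8 and 76.5 FPKM at 72 h, against 136 and 162 FPKM at 48 h (limma adjusted p = 0.0845).

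Selenbp1 was at 16.5 and 1.78 FPKM at 72 h, against 1.24 and 1.02 FPKM at 48 h, and Bhlhe40, a transcription factor of the clock and of hypoxia, at 17.2 and 3.59 FPKM, against 1.70 and 2.50 FPKM. In both, replicate 1 of 72 h was far above the other 3 libraries. Of 14 tested circadian genes none was called in limma, with 5 at an unadjusted p of 0.05, against 11.3% of all genes tested. Their median was 0.19. Pmepa1, a gene induced by TGF-beta, had 0.0554 and 0.205 FPKM at 72 h, against 1.36 and 4.15 FPKM at 48 h (limma adjusted p = 0.0801).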
